A study of Mus musculus with 6 samples.

Results

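F13a1, which encodes the catalytic A subunit of coagulation factor XIII, and the transglutaminase genes Tgm1, Tgm2 and Tgm3 are 4 of the 55487 genes in the count table. They were taken by gene symbol and were chosen by measured values, since the large difference of F13a1 between these same libraries was known when the set was drawn up. Their differences between the groups are therefore given as a description, without a test. F13a1 and Tgm2 were 2 of the 16565 genes that passed the filter on low counts (a count over 10 in all libraries of at least 1 group), whereas Tgm1 and Tgm3 did not pass it. In aortas of the knockout mice F13a1 RNA stood at 8.91 times its Control level (log2 fold change 3.16 ± 0.12, SE, n = 3 per group), Tgm2, by far the most abundant family member, at 1.16 times, and Tgm1 and Tgm3 had at most 9 reads in any library.

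The study asked how the loss of Prdm16, a zinc finger transcription regulator, from smooth muscle cells alters gene expression in the unchallenged aorta. All 6 animals were males carrying Myh11-CreERT2, a tamoxifen-activated Cre driven by a smooth muscle promoter on the Y chromosome. The 3 iSM KO mice carried Prdm16 alleles with a floxed exon 9 on both chromosomes, and the 3 Control mice were littermates with wild-type Prdm16. Both groups received 1 mg tamoxifen per mouse and day for 10 days from 8 weeks of age, and their aortas were taken 60 days after a washout of 2 weeks. Cre acts here in smooth muscle cells, so other cells of the wall keep Prdm16, and the adventitia was stripped before RNA extraction.

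Transglutaminases join a glutamine of one protein to a lysine of another, a bond that proteases cannot readily cut. Factor XIII circulates in plasma with its B subunit, is activated by thrombin and stabilises fibrin clots, and a cellular form without the B subunit is found in platelets and macrophages. Tgm2, or tissue transglutaminase, is abundant in the vessel wall, where it crosslinks matrix and also binds GTP, while Tgm1 and Tgm3 are best known for building the cornified envelope of the epidermis. The catalytic residue of the active enzymes is a cysteine.

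The bases around that cysteine codon are shown for the 4 genes because they carry the activity the family shares and show how far the genes have diverged. Each is 30 coding bases read 5′ to 3′ on the gene's strand from GENCODE M21 transcripts on GRCm38, with the cysteine codon in capitals, found by a script as the cysteine in the translated run glycine, glutamine, cysteine, tryptophan.
F13a1: cgatatggccagTGTtgggtttttgctggt
Tgm1: ccctacggccaaTGCtgggtctttgccggt
Tgm2: aagtacgggcagTGCtgggtgtttgcagcg
Tgm3: caatttggccagTGCtgggtctttgctgga
The codon lies in exon 7 of 15 of F13a1 (codon 315, chr13:36946471-36946473, minus strand) and in exon 7 of 15 of Tgm1 (codon 376, chr14:55709422-55709424, minus strand). In Tgm2 it lies in exon 6 of 13 (codon 277, chr2:158131359-158131361, minus strand), and in Tgm3 in exon 6 of 13 (codon 273, chr2:130029772-130029774, plus strand). F13a1 uses TGT and the 3 Tgm genes use TGC.

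Over the aligned bases of the coding sequences, with gaps left out, the members were 59.5% to 63.3% identical in pairs. The longest run of identical bases that F13a1 shared with another member was 12. No other annotated gene matched a stretch of at least 100 bp of an F13a1 or Tgm3 transcript at 95% identity or more. Tgm1 matched 1 gene (Gm49067) over 183 bp and Tgm2 matched 2 genes (Rprd1b and Gm20412) over up to 522 bp, all of which overlap them on the opposite strand. Reads over those stretches cannot be told apart without strand, and Rprd1b had 586 to 1047 counts per library against 10778 to 23699 for Tgm2.

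The libraries held 24911609 to 40460467 deposited counts, so that 1 count corresponded to 0.0245 to 0.0419 CPM (the count scaled to a common library total with edgeR's TMM factors). Prdm16 itself measured 183, 223 and 179 CPM in Controls 1 to 3 and 93.8, 113 and 79.8 CPM in iSM KO 1 to 3 (log2 fold change -1.03 ± 0.14, SE, FDR 0.00265), in the direction of the labels, and its log2 fold change was -0.92 without Control 2 or without iSM KO 3. FDR is the Benjamini-Hochberg adjusted p-value of edgeR's quasi-likelihood test over all tested genes, and a gene is called changed when it is under 0.05 with a log2 fold change beyond 1 in either direction. Of all tested genes, 1.40% were called higher and 1.38% lower in iSM KO, and 7.56% passed an FDR of 0.05 when fold change was disregarded. With 3 mice and 3 libraries per group, p-values measure the spread between these libraries.

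F13a1 (ENSMUSG00000039109, GRCm38 chr13:36867178-37050244, minus strand) had 379, 347 and 253 counts in Controls 1 to 3 and 3635, 2873 and 3796 counts in iSM KO 1 to 3. Scaled for depth, these were 11.3, 9.03 and 10.6 CPM in Control and 89.2, 82.3 and 104 CPM in iSM KO. The groups did not overlap, and the lowest iSM KO library stood at 7.28 times the highest Control library. The mean level was 10.3 ± 1.17 CPM in Control and 91.8 ± 11.04 CPM in iSM KO (SD, n = 3 per group). Within each group the libraries lay close together compared with the distance between the groups. The exact Poisson 95% intervals ran from 8.10 to 12.5 CPM over the Control libraries and from 79.3 to 107 CPM over the iSM KO libraries, and like every interval of counts here they cover counting error only. With each library left out in turn, the log2 fold change of F13a1 ranged from 3.05 to 3.24. Sorted by log2 fold change from the top, F13a1 had rank 29 of 16565. In these bulk samples, more cells that express a gene and more RNA of it per cell cannot be told apart, and the same holds for a lower level.

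Per kilobase of exon (FPKM, the CPM divided by the union of the gene's exons), F13a1 moved from the lower to the upper part of the expressed genes. Its FPKM was 1.68, 1.34 and 1.57 in Controls 1 to 3 and 13.2, 12.2 and 15.4 in iSM KO 1 to 3. By mean FPKM it had rank 10118 of 16534 tested genes with a known length in Control, with 38.8% of genes below it, and rank 2057 in iSM KO, with 87.6% of genes below it.

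Tgm2 (ENSMUSG00000037820, GRCm38 chr2:158116402-158146436, minus strand) measured 549, 586 and 452 CPM in Controls 1 to 3 and 581, 675 and 586 CPM in iSM KO 1 to 3. The groups overlapped, with iSM KO 1 below Control 2, and Control 3 was the lowest library. Mean levels were 529 ± 69.1 CPM and 614 ± 52.7 CPM (SD, n = 3 per group), a log2 fold change of 0.22 ± 0.12 (SE). This value ranged from 0.11 without Control 3 to 0.30 with each library left out in turn. Tgm2 was among the most abundant transcripts of either group, with rank 211 of 16534 by mean FPKM in Control and rank 183 in iSM KO.

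**Figure D1:**
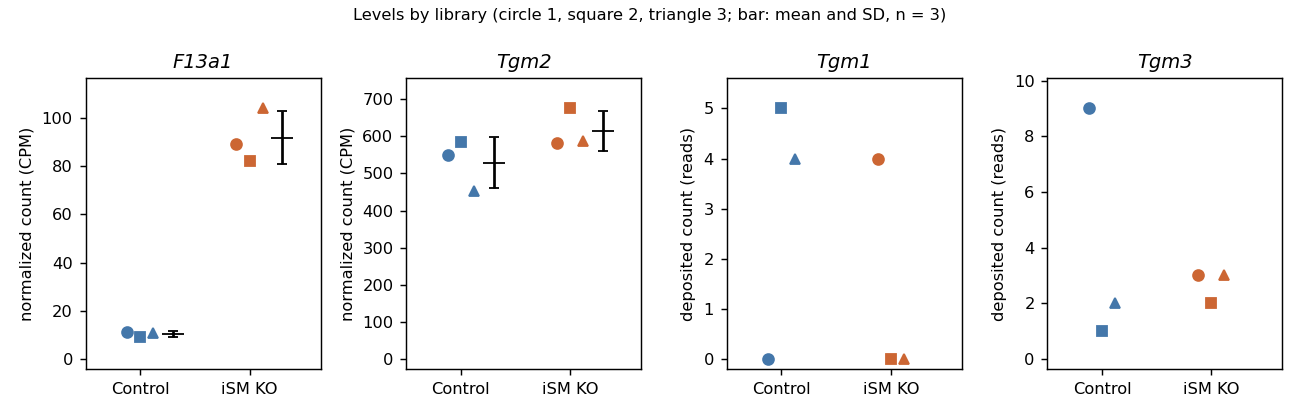
Each panel gives 1 gene, with normalized counts (CPM) on the vertical axis for F13a1 and Tgm2 and deposited counts for Tgm1 and Tgm3, and the groups on the horizontal axis. Points are libraries (circle 1, square 2, triangle 3) and bars are mean and SD (n = 3). F13a1 lies between 9.03 and 11.3 CPM in Control and between 82.3 and 104 CPM in iSM KO, the Tgm2 groups overlap, and Tgm1 and Tgm3 stay at 0 to 9 counts.

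The epidermal members were at the limit of detection in every aorta. Tgm1 (ENSMUSG00000022218, GRCm38 chr14:55700009-55713926, minus strand) had 0, 5 and 4 counts in Controls 1 to 3 and 4, 0 and 0 counts in iSM KO 1 to 3. Tgm3 (ENSMUSG00000027401, GRCm38 chr2:130012349-130050399, plus strand) had 9, 1 and 2 counts in Control and 3, 2 and 3 in iSM KO. No difference of either gene was detectable at this depth, at which 3 counts, the one-sided 95% upper limit that a count of 0 allows, correspond to 0.0736 to 0.126 CPM. The rest of the family was as low. Tgm4, a prostate enzyme, had 6 to 15 counts per library, Tgm5 2 to 6, Tgm6 0 to 1, Tgm7 0 to 3, and Epb42, the red cell membrane protein of the family that lacks the catalytic cysteine, 0 to 3. None of these 5 genes passed the filter. F13b, which encodes the plasma carrier subunit of factor XIII and belongs to another protein family, had 0 counts in all 6 libraries.

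**Figure D2:**
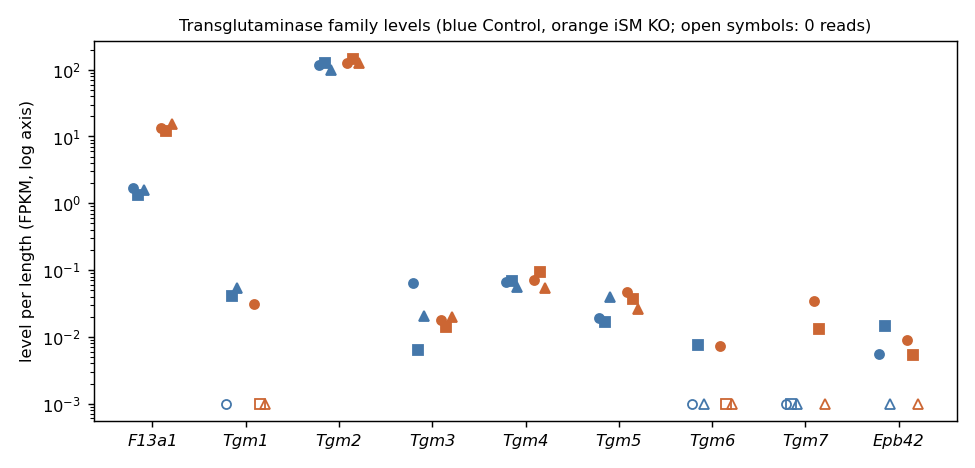
Level per length (FPKM, log axis) of the 9 transglutaminase family genes in each library, Control in blue and iSM KO in orange, with open symbols for 0 reads, placed at the bottom of the axis. Tgm2 lies highest in both groups, F13a1 is the only other gene above 1 FPKM, and the remaining 7 genes stay below 0.1 FPKM.

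Summed per length over the 9 family genes, the level was 116 ± 14.9 FPKM in Control and 147 ± 10.3 FPKM in iSM KO (SD, n = 3 per group). Tgm2 made up 98.5% ± 0.294 of this sum in Control and 90.6% ± 1.55 in iSM KO. The share of F13a1 was 1.34% ± 0.272 in Control and 9.32% ± 1.56 in iSM KO, so that Tgm2 stood at 76.0 ± 16.9 times F13a1 in Control and at 9.93 ± 1.90 times in iSM KO. The family message was thus mostly Tgm2 in both groups, with F13a1 second. Without correction for length, F13a1 held 2.02%, 1.52% and 2.29% of the family's counts in Controls 1 to 3 and 13.3%, 10.9% and 15.05% in iSM KO 1 to 3. The Wilson 95% intervals of these shares reached at most 2.59% in Control and were at least 10.5% in iSM KO. These shares follow from the difference that the genes were chosen by and add nothing independent to it.

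Among the genes whose profile over the 6 libraries was most like that of F13a1 were Nwd2, Hecw1, Stc1 and Rgs6. Likeness was the root mean square difference of centred log2 CPM, among 13995 tested genes with a mean of at least 1 CPM. It was 0.195 for Nwd2, a NACHT and WD repeat protein, 0.275 for the ubiquitin ligase Hecw1, 0.277 for the secreted glycoprotein Stc1 and 0.278 for Rgs6, a regulator of G protein signalling. Stc1 measured 2.31 ± 0.436 CPM in Control and 18.9 ± 1.89 CPM in iSM KO, and Rgs6 1.90 ± 0.519 and 16.4 ± 0.810 CPM (SD, n = 3 per group). Nwd2 went from 0.526 to 5.18 CPM and Hecw1 from 0.310 to 2.46 CPM. Hecw1, with 14, 10 and 6 counts in Controls 1 to 3, passed the filter through the iSM KO group alone. Since the measure picks genes with the same group difference, these values are a description of these 6 libraries.

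Around F13a1 on chromosome 13, 1 of the 4 nearest tested genes outside its span was called higher in iSM KO, against 1.40% of all tested genes. Nrn1, which encodes the small membrane-anchored protein neuritin and lies 132 kb from F13a1 at lower coordinates, measured 2.0, 1.17 and 2.01 CPM in Controls 1 to 3 and 4.24, 5.39 and 5.94 CPM in iSM KO 1 to 3. All 3 iSM KO libraries lay above the Control libraries (log2 fold change 1.60 ± 0.25, SE, FDR 0.00568), and Nrn1 was called in 6 of 6 fits with 1 library left out. Fars2, a mitochondrial tRNA synthetase gene on the same side, had a log2 fold change of 0.012 (FDR 0.967). On the other side, Rreb1, a zinc finger factor gene 728 kb away, had 0.11 (FDR 0.600), and Ssr1, a gene of the endoplasmic reticulum translocon 916 kb away, had -0.12 (FDR 0.364). Antisense to F13a1 and within its span lies Gm30489 (chr13:36963239-36973329), which had 2, 1 and 2 counts in Controls 1 to 3 and 19, 11 and 31 counts in iSM KO 1 to 3. Gm30489 was picked out after its values were seen and passed the filter through the iSM KO group alone, so these counts are a description. Whether strand was used in counting is not given in the sources used here, so reads of Gm30489 and of unspliced F13a1 RNA cannot be told apart.

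Macrophages and platelets are the classical sources of cellular factor XIII A, and the summed markers of neither were higher in all iSM KO libraries. The summed level of 19 macrophage markers was 269 to 304 CPM in Control and 176 to 216 CPM in iSM KO, lower in every iSM KO library (log2 ratio -0.52, exact two-sided permutation p = 0.1, adjusted over 9 marker lists 0.225, where 0.1 is the smallest p that 3 against 3 libraries allow). Of the 15 markers tested, 14 had a negative log2 fold change, with a median of -0.60 against -0.014 over all tested genes, and 1 had an FDR under 0.05 (6.67%, against 7.56%). That one was Cbr2, a carbonyl reductase, which fell from 148 to 83.2 CPM (log2 fold change -0.83, FDR 0.000917). Aif1 and Ms4a7, both negative, passed the filter through the Control group alone, where their means were higher. The count of negative macrophage markers and their median are therefore a description. Cbr2 and the receptor kinase Mertk (85.2 and 82.4 CPM, FDR 0.866) made up most of the sum, followed by the lysozyme gene Lyz2 (8.40 and 4.56 CPM, FDR 0.146). Without this pair, a choice made after seeing the data, the sum was 45.2 to 50.8 CPM in Control and 19.5 to 52.7 CPM in iSM KO, with iSM KO 3 above all others (log2 ratio -0.63, exact permutation p = 0.4). F13a1 was highest in the same library, iSM KO 3, at 104 CPM, and measured 89.2 and 82.3 CPM in iSM KO 1 and 2, where the sum of these 17 markers was 19.5 and 20.3 CPM. The 5 monocyte markers together stayed at 0.729 to 1.07 CPM in Control and 0.430 to 1.26 CPM in iSM KO (exact permutation p = 0.8), with Ccr2, Plac8 and Ly6c2 highest, and none passed the filter. The 10 platelet markers together measured 6.54 to 9.06 CPM and 5.64 to 9.27 CPM (exact permutation p = 0.7). Of these, 0 of the 6 tested had an FDR under 0.05 by edgeR's test, against 7.56% of all tested genes. With 6 genes, 0 cannot be told from that share. The most abundant, Itga2b, Gp1ba and Ppbp, had FDRs of 0.768, 0.361 and 0.688, and 4 of the 6 had a negative log2 fold change. At an unadjusted p under 0.05 the count was 1 by edgeR, namely Gp9, and DESeq2 and limma-voom also gave 0 at an FDR under 0.05. Gp9 measured 0.179, 0.234 and 0.168 CPM in Control and 0.368, 0.458 and 0.411 CPM in iSM KO (log2 fold change 1.05, FDR 0.134). It passed the filter through the iSM KO group alone, so these values are a description.

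The 7 smooth muscle markers, the defining genes of the labelled tissue, were abundant in all libraries, with summed levels of 22392 to 27357 CPM in Control and 24004 to 26415 CPM in iSM KO (log2 ratio 0.061, exact permutation p = 0.6). The contractile genes Acta2, Myh11 and Tagln were the most abundant, with log2 fold changes of -0.14, 0.21 and 0.12 (FDR 0.660, 0.333 and 0.666). Of the list, Myocd alone had an FDR under 0.05 (log2 fold change 0.65, FDR 0.0109), which is 14.3% of the 7 genes, against 7.56% of all tested genes. The FDR of Myocd stayed under 0.05 in 5 of 6 fits with 1 library left out. Fibroblast markers measured 226 to 410 and 174 to 267 CPM (exact permutation p = 0.2), and endothelial markers 372 to 673 and 210 to 528 CPM (exact permutation p = 0.2), and the groups overlapped for both. Log2 fold changes were negative for 7 of 8 fibroblast and 8 of 8 endothelial genes. Their medians were -0.65 and -0.60, beside -0.60 for the macrophage list, so a lower median was not particular to macrophage markers. None of the 8 genes of either list had an FDR under 0.05 by edgeR's test, against 7.56% of all tested genes. With 8 genes, 0 cannot be told from that share. The lists included Dcn, Pdgfra and Cd34 of fibroblasts and Pecam1, Erg and Tie1 of endothelium. At an unadjusted p under 0.05 there were 6 fibroblast genes and 1 endothelial gene, and at an FDR under 0.05 DESeq2 gave 1 and 0 and limma-voom 0 and 0. The markers of a pair of other cell types were lower in every iSM KO library. Adipocyte markers measured 30.3 to 185 CPM in Control and 7.77 to 14.2 CPM in iSM KO (log2 ratio -3.30, exact permutation p = 0.1, adjusted 0.225), and 5 of the 6 tested were called lower (against the 1.38% of all tested genes), while limma-voom gave 1 at an FDR under 0.05. Fabp4 was called in 6 of 6 fits with 1 library left out, Cfd and Adipoq in 4, Plin1 in 2 and Cidec in 1, with Fabp4 alone called without iSM KO 1 or without iSM KO 2. Adipoq had 13, 6 and 23 counts in iSM KO 1 to 3 and passed the filter through the Control group alone, where it was higher. The count of called adipocyte genes is therefore a description. The summed log2 ratio was -2.56 without Control 2, which had the highest adipocyte sum. Cartilage markers measured 118 to 137 CPM and 50.8 to 64.6 CPM (log2 ratio -1.20, exact permutation p = 0.1, adjusted 0.225), and 4 of the 7 tested were called lower (against the 1.38% of all tested genes), namely Acan, Comp, Sox9 and Hapln1, each in 6 of 6 fits with 1 library left out. The other cartilage genes tested, Chad, Col10a1 and Col2a1, had log2 fold changes of 0.75, 0.13 and -0.0032 (FDR 0.400, 0.778 and 0.998). The part of these cell types in the F13a1 level was not tested.

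**Figure D3:**
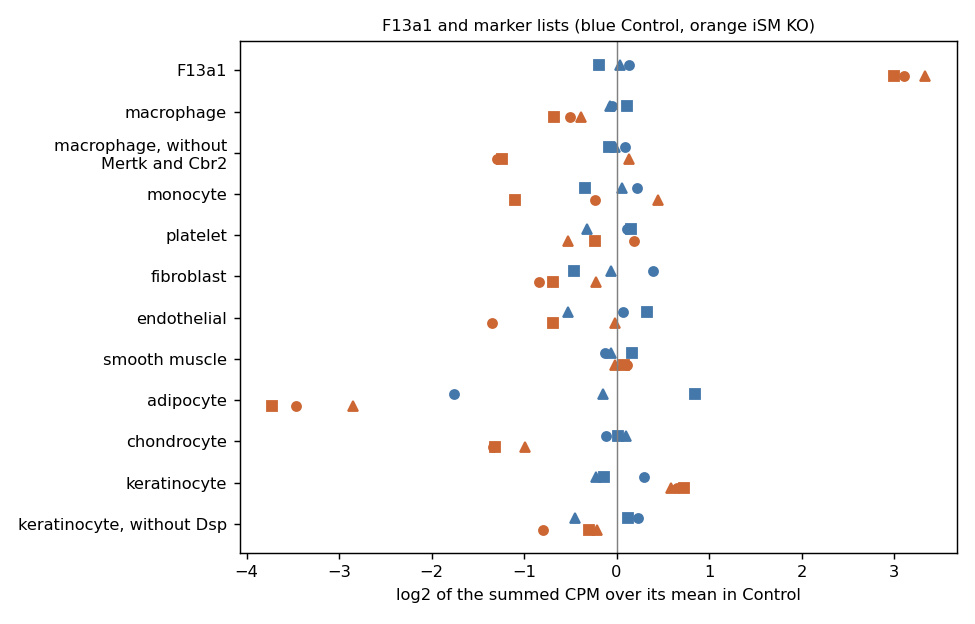
The horizontal axis is the log2 ratio of the CPM of F13a1, or of the summed CPM of a marker list, to its mean in Control, and each point is a library (Control in blue, iSM KO in orange; circle 1, square 2, triangle 3). F13a1 lies about 3 units above Control in all 3 iSM KO libraries, while of the marker lists only that of keratinocytes lies above the Control range in all 3, and not without Dsp.

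For the epidermal members, the matching cell type was near absent. Of 14 keratinocyte markers present in the table, Ivl and Rptn had 0 counts in all 6 libraries and 4 passed the filter. The summed level was 322 to 461 CPM in Control and 565 to 622 CPM in iSM KO (log2 ratio 0.66, exact permutation p = 0.1, adjusted 0.225), but almost all of it was Dsp, a desmosome gene also used outside the epidermis (354 and 576 CPM, log2 fold change 0.70, FDR 0.0160). Ppl and Evpl, the next most abundant, did not pass (FDR 0.361 and 0.298). Without Dsp, a choice made after seeing the data, the sum was 15.4 to 24.7 CPM in Control and 12.1 to 18.2 CPM in iSM KO and the direction turned (log2 ratio -0.41, exact permutation p = 0.3).

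Few clotting factor genes were measurable in the aorta, and the pair with an FDR under 0.05 was lower in iSM KO. Of 19 clotting factor genes, most of them liver products, 6 were tested, and 2 of these (33.3%, against the 7.56% of all tested genes) had an FDR under 0.05. The median log2 fold change of the 6 was -0.55 and all 6 were negative. F8, the cofactor of factor IX, measured 1.97, 2.55 and 2.18 CPM in Control and 0.81, 1.23 and 1.29 CPM in iSM KO (log2 fold change -1.01 ± 0.26, SE, FDR 0.0486). F3, tissue factor, the starter of the extrinsic pathway, measured 27.1, 16.5 and 28.1 CPM in Control and 11.7, 14.7 and 14.5 CPM in iSM KO (log2 fold change -0.81 ± 0.19, SE, FDR 0.0393). The groups did not overlap for either gene, but F8 kept an FDR under 0.05 in 0 of 6 fits with 1 library left out and F3 in 1 of 6, the one without Control 2. Among 7 tested anticoagulant genes of 11, 1 had an FDR under 0.05 (14.3%, against 7.56%). This was Tfpi, the inhibitor of the tissue factor pathway, which was higher (log2 fold change 0.57 ± 0.14, SE, FDR 0.0470). Its FDR stayed under 0.05 in 1 of 6 fits with 1 library left out, the one without Control 1. None of the 3 tested thrombin receptor genes of 4 had an FDR under 0.05 by edgeR's test, against 7.56% of all tested genes (median log2 fold change -0.14). With 3 genes, 0 cannot be told from that share. At an unadjusted p under 0.05 the count was 1 by edgeR, and DESeq2 and limma-voom gave 0 at an FDR under 0.05.

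Genes of fibrinolysis, which dissolves the clots that factor XIII stabilises, included a called gene. Of 8 tested genes of 13, 3 were past an FDR of 0.05 and all 3 were higher in iSM KO (37.5%, against 7.56%), and the median log2 fold change of the 8 was 0.37. Plat, tissue plasminogen activator, measured 63.2, 56.6 and 47.4 CPM in Control and 133, 118 and 123 CPM in iSM KO (log2 fold change 1.16 ± 0.11, SE, FDR 0.000474). S100a10, a plasminogen receptor subunit, measured 17.5 ± 1.22 and 32.3 ± 0.878 CPM (SD, n = 3 per group, log2 fold change 0.88, FDR 0.000596). Both kept an FDR under 0.05 in 6 of 6 fits with 1 library left out. Serpine2, protease nexin 1, an inhibitor of thrombin and plasminogen activators, was higher by a log2 fold change of 0.38 (FDR 0.0252), and its FDR rose past 0.05 without Control 1 and without each iSM KO library. The list thus held both an activator and an inhibitor among the genes that were higher.

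Transcripts of transglutaminase substrates that passed the test went in both directions. Of 13 tested substrate genes of 14, 2 were higher and 1 lower at an FDR under 0.05 (23.1%, against 7.56%), with a median log2 fold change of -0.14. Col3a1, a fibrillar collagen, was called lower, from 1084 ± 61.3 to 497 ± 41.1 CPM (SD, n = 3 per group, log2 fold change -1.13 ± 0.10, SE, FDR 0.000329). Mfap2, a microfibril glycoprotein, rose from 4.72 ± 0.336 to 8.65 ± 0.823 CPM (log2 fold change 0.87, FDR 0.00551), and Ltbp1, a latent TGF-β binding protein, from 830 ± 65.6 to 1274 ± 37.8 CPM (log2 fold change 0.62, FDR 0.00555). All 3 genes kept an FDR under 0.05 in 6 of 6 fits with 1 library left out. Fn1, fibronectin, a substrate of both factor XIII and Tgm2, measured 4541 ± 1163 and 3573 ± 348 CPM (log2 fold change -0.35, FDR 0.302). Of the 9 genes for other crosslinking enzymes, such as lysyl oxidases and lysyl hydroxylases, 2 were higher at an FDR under 0.05 (22.2%, against 7.56%) and none was called. These were Plod2, a lysyl hydroxylase (log2 fold change 0.34, FDR 0.0176), and Pxdn, the peroxidase that crosslinks collagen IV (log2 fold change 0.51, FDR 0.0484). Plod2 lost its FDR without each iSM KO library and Pxdn without Control 1, Control 3, iSM KO 1 or iSM KO 2, and the median of the 9 was 0.058.

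**Figure D4:**
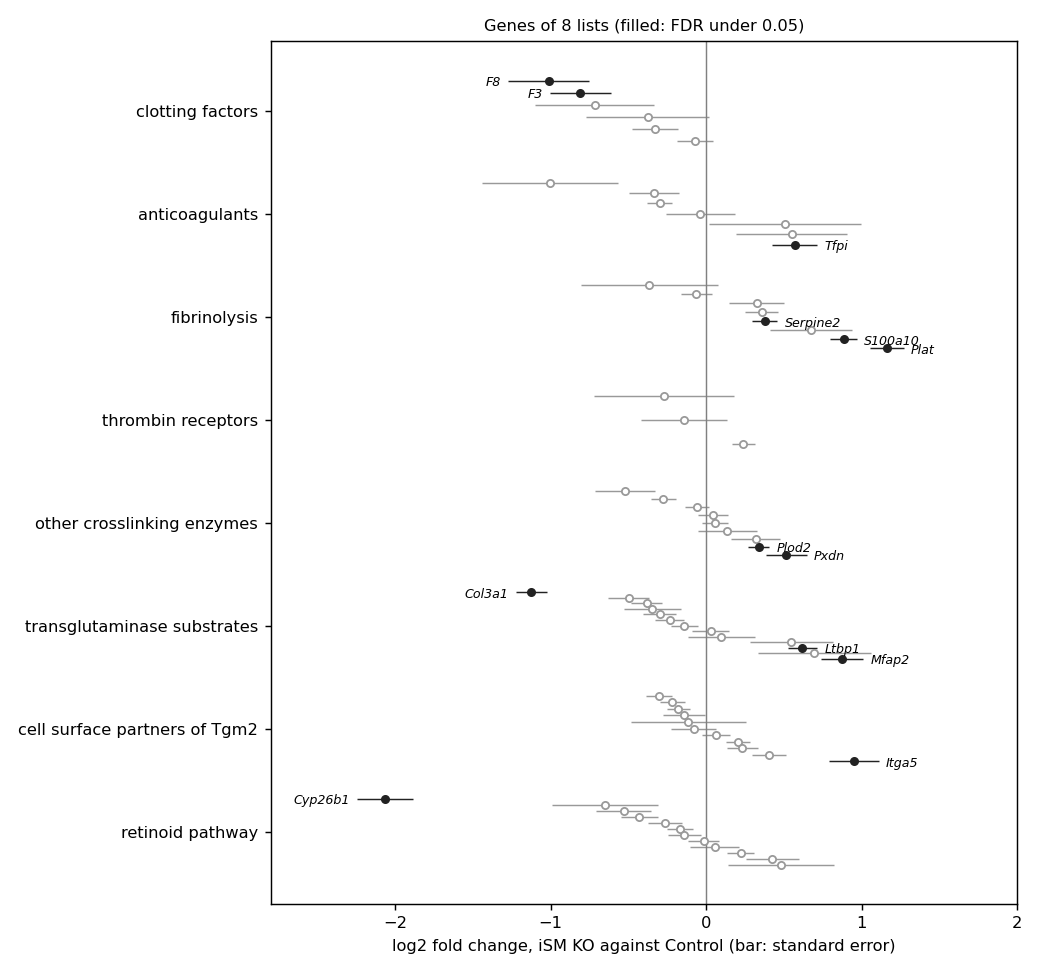
Each point is a tested gene, placed by its log2 fold change of iSM KO against Control with its standard error, in 8 lists of genes around F13a1 and Tgm2, and filled where the FDR is under 0.05. Cyp26b1 at -2.06 lies farthest from 0, the filled clotting factors F8 and F3 are negative, and the filled fibrinolysis genes Plat, S100a10 and Serpine2 are positive.

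Around Tgm2, 1 of 11 genes for its cell surface partners was past an FDR of 0.05 (9.09%, against 7.56%), with a median log2 fold change of -0.081. This was Itga5, the alpha chain of the fibronectin receptor integrin, at 343 ± 70.9 CPM in Control and 662 ± 93.9 CPM in iSM KO (SD, n = 3 per group, log2 fold change 0.95 ± 0.16, SE, FDR 0.00797), with an FDR under 0.05 in 6 of 6 fits with 1 library left out. Retinoic acid is a classical inducer of Tgm2. Of 12 tested genes of the retinoid pathway, of 19, 1 was past the threshold (8.33%, against 7.56%), with a median log2 fold change of -0.16. Cyp26b1, which degrades retinoic acid, measured 23.3, 19.6 and 16.0 CPM in Control and 5.69, 3.87 and 4.52 CPM in iSM KO. Every iSM KO library lay below every Control library (log2 fold change -2.06 ± 0.18, SE, FDR 0.000318). Tgm2 differed by 0.22 on the same scale, and a link between Cyp26b1 and Tgm2 was not tested.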

How the data were processed

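RNA of 3 Control and 3 iSM KO aortas was measured by bulk RNA-seq after depletion of ribosomal RNA. The authors mapped and quantified the reads on mm10 with DRAGEN after bcl2fastq, as the submitters' processing notes name them, with Ensembl release 101 per the study's methods. The deposited columns hold estimated counts of each gene, not normalized, 10.9% to 12.2% of them not whole in each library. The treatment of multi-mapping reads and the use of strand are not given in the sources used here.

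The estimated counts were rounded, and the study's filter (a count over 10 in every library of 1 group or more) was applied. The main test was edgeR 4.0.16 (TMM, glmQLFit and glmQLFTest, no covariate) in R 4.3.3 with Benjamini-Hochberg adjustment, tested on simulated data. The study's own tool, DESeq2 1.42.0, limma-voom (limma 3.58.1), other size factors, other filters, other gene lengths, leaving out each library and a block for the replicate number were alternatives. Marker lists were compared by summed CPM with exact permutation tests (SciPy 1.17.1). Gene positions, lengths and sequences come from GENCODE M21 on GRCm38, and near-identical copies from blastn 2.17.0 (95% identity over 100 bp). Depth ranged from 24911609 to 40460467 counts.

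The members and gene lists were chosen with earlier results of these data known, so no list is independent evidence. Besides the members, the genes named are the other family genes, Prdm16, the called genes of each list or, with fewer than 2, up to 3 with an FDR under 0.05, the 3 most abundant of each marker list, the nearest tested genes, 2 on each side of F13a1, and the 5 genes most like F13a1 in profile, of which 1 is not reported here. F13b, Gm30489, Gm49067, Gm20412, Rprd1b, Fn1, Myocd, Gp9, Aif1, Ms4a7, Adipoq, Cidec, Hapln1, Chad, Col10a1, Col2a1, Ivl and Rptn were named outside this rule with their values known. The same-numbered Control and iSM KO libraries did not deviate together (correlations -0.13, -0.046 and -0.11), so the numbers were not taken as pairs.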

Additional observations from a re-analysis of the deposited data

How the results depend on the processing

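The direction of F13a1 and of Tgm2 was the same in 13 fits over all genes. Leaving out 1 library gave 162 to 243 genes called higher and 128 to 317 called lower (128 without iSM KO 2, 133 without iSM KO 1), and no filter on low counts gave 349 called lower. Of the genes named from the lists, Plat, S100a10, Col3a1, Mfap2, Ltbp1, Itga5 and Cyp26b1 kept an FDR under 0.05 in 13 of 13 alternatives, Plod2 in 9, Serpine2 in 8, F3, Tfpi and Pxdn in 6 and F8 in 4.

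Counts of list genes with an FDR under 0.05 moved as follows. Leaving out 1 library gave 0 to 1 clotting factors, 0 to 1 anticoagulants, 2 to 4 fibrinolysis genes, 0 to 2 other crosslinking enzymes, 3 to 6 substrates, 1 to 2 partners of Tgm2 and 1 to 3 retinoid genes. No filter gave 2 anticoagulants, 5 fibrinolysis genes, 5 substrates, 2 partners and 2 retinoid genes, and DESeq2 gave 5 substrates, 3 partners and 2 retinoid genes. limma-voom gave 1 clotting factor and 2 partners, filterByExpr 1 clotting factor and 1 crosslinking enzyme, and DESeq2's size factors 1 crosslinking enzyme. Total count in place of TMM, added after seeing the data, gave 1 clotting factor, 0 anticoagulants, 1 crosslinking enzyme and 2 partners. The cause of these shifts was not tested.

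The replicate number as a block gave 188 genes called higher and 165 lower, 0 clotting factors, 0 anticoagulants, 1 crosslinking enzyme and 2 retinoid genes, and left the log2 fold change of F13a1 at 3.15 and of Tgm2 at 0.22. The numbers did not pair the libraries.

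With the longest transcript as gene length, F13a1 held 1.77% and 12.03% of the family level in Control and iSM KO and Tgm2 98.1% and 87.9%. With no length correction these were 1.94%, 13.1%, 97.9% and 86.8%. The log2 ratio of the monocyte markers ranged from -0.60 to 0.15 with 1 library left out, turning direction to 0.15 without iSM KO 2, and that of the keratinocyte markers turned to -0.41 without Dsp. Tgm1, Tgm3 and the rest of the family other than F13a1 and Tgm2 were too low for any comparison at this depth.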
